A study of Mus musculus with 9 samples.

Results

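The 3 libraries of beta-enriched mouse islet cells were compared with the 3 libraries of delta-enriched islet cells, 6 of the 9 libraries in the series. Members were chosen by the submitters' sort labels alone, and the description centres on genes and functions other than hormones, textbook cell markers and iron genes. All libraries came from hand-picked pancreatic islets of C57B/L6 mice, 12 weeks old, kept in culture overnight, dispersed and separated by flow cytometry. Beta-enriched cells were gated as CD71 positive with low CD24. The delta-enriched gate took cells of high CD24, whatever their CD71 signal. The 3 remaining libraries were alpha-enriched (CD24 low, CD71 negative), and their levels are given only beside the other groups. No group carried a treatment, transgene or deletion. The labels do not say whether the libraries of a group came from separate mice or sorts, so p-values measure only the spread between these samples, which may be technical.

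Beta cells secrete insulin when blood glucose rises, and delta cells secrete somatostatin, which acts over short distances to restrain both insulin and glucagon release. Both are electrically excitable cells with dense-core granules and share a developmental origin. Delta cells carry long, neuron-like processes that reach many neighbours in the islet, while beta cells are compact and joined to each other by gap junctions. In bulk libraries such as these, fewer cells of a type and less RNA per cell cannot be told apart.

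The deposited tables held 5663141 to 9529920 expected counts per library. Levels below are in CPM, the usual unit for read counts scaled to a common library size, and a log2 fold change is beta minus delta, so that positive values are higher in beta. The insulin and somatostatin transcripts matched the labels. Ins2 stood at 25947 ± 4089.6 CPM in beta (mean ± SD, n = 3) and 191 ± 174 in delta, and Sst at 1.57 ± 0.664 and 17221 ± 3226. Ins1 and Ins2 are near-identical, so how their shared reads were divided is unsure. Cd24a, which encodes the sorted protein CD24, was at 3.56 ± 1.42 CPM in beta against 868 ± 91.1 in delta. Beta library 2 and delta library 3 stood apart from the rest. Ribosomal RNA genes took in the former 34.4% of all counts, against 3.84% to 5.39% in the other 5, and in delta library 3 the 16 listed acinar markers summed to 2458 CPM, against 230.4 and 202 in the other delta libraries and 41.6 to 89.5 in beta. Other endocrine transcripts were also unequal between the gates. The 16 beta markers summed to 56543 to 67831 CPM in beta and 6289 to 7591 in delta, and the 8 delta markers to 144 to 182 in beta and 15566 to 21936 in delta. The 14 alpha markers summed to 7225, 2900 and 6330 CPM in delta, 994 to 1235 in beta and 84351 to 104049 in alpha, and the 5 PP markers to 4719 to 6634 in delta and 211 to 241 in beta. The hormone genes Gcg, Ppy and Pyy averaged 4380, 1709 and 3395 CPM in delta and 393, 41.5 and 30.9 in beta. In alpha they averaged 89394, 2014 and 1245 CPM. The part of alpha and PP cell RNA in the delta-high genes below was not tested. Listed endothelial, immune, mesenchymal and erythroid markers summed to under 10 CPM in all 6 libraries, with 2, 4, 5 and 5 of their members at 0 in every beta library and 5, 3, 5 and 5 in every delta library. The 12 Schwann cell and peripheral neuron markers summed to 12.2 to 18.9 CPM in beta and 17.9 to 33.7 in delta. In the test described below, 2 of their 3 tested members were higher in delta and 1 had no call. The 2 tested mesenchymal markers were also higher in delta, beside 15.3% of all tested genes. The part of RNA from such cells in the delta-high genes was not tested. Of the 8 listed delta markers, the opioid peptide gene Pdyn went against its list, with 70.9 ± 14.7 CPM in beta against 25.1 ± 7.8 in delta.

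**Figure D1:**
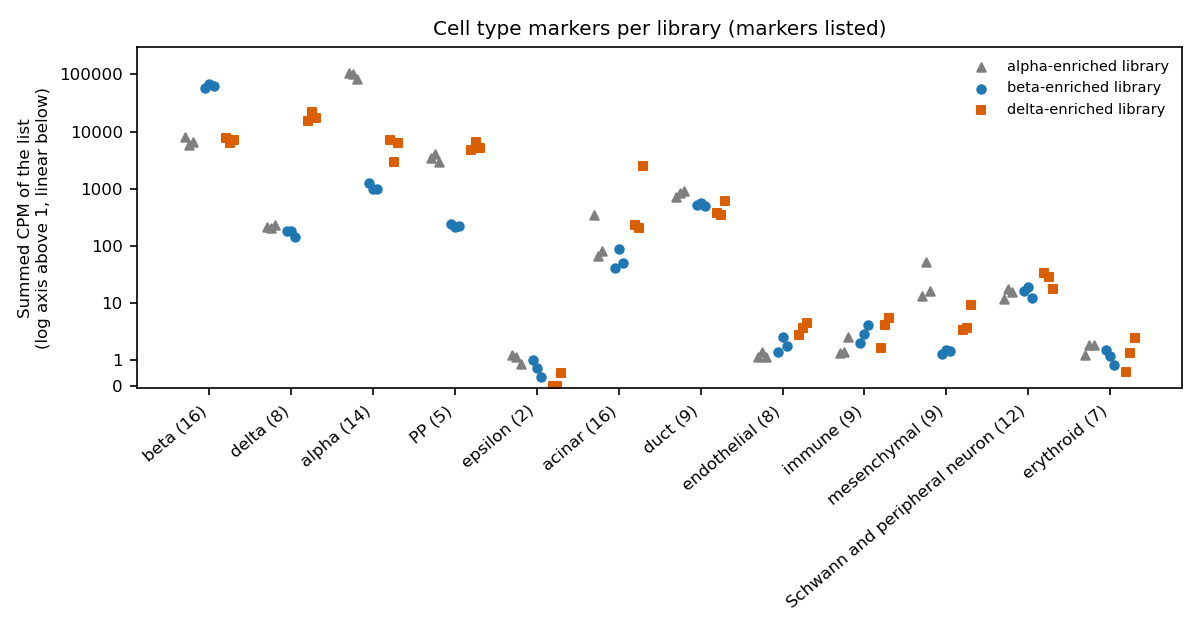
Summed CPM of 12 marker lists (number of listed markers in parentheses) in each alpha-, beta- and delta-enriched library, on a log axis that is linear below 1. Beta markers lead in beta, delta markers in delta, and 1 delta library stands above the rest for acinar markers, at 2458 CPM.

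Of 15896 tested genes, 4869 (30.6%) differed between beta and delta by edgeR's quasi-likelihood test with Benjamini-Hochberg adjustment at 0.05. The calls were even in number, 2442 higher in beta (15.4% of tested genes) and 2427 higher in delta (15.3%), but uneven in size. At 8-fold or more, 251 genes were higher in beta and 645 higher in delta, and among protein-coding genes alone 183 and 517. The median log2 fold change over all tested genes was -0.02.

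Genes were next read through 46 functional lists. Delta-high calls took the largest share of the lists for BMP and TGF-beta signalling (57.9%), axon guidance (57.1%), growth cone proteins (57.1%), calcium, sodium and TRP channels (48.7%) and ionotropic receptors (47.6%). Beta-high calls took the largest share of the 13 protein-coding genes of the mitochondrial genome (84.6%), of ER folding and stress genes (53.2%), of monoamine and GABA enzymes (43.8%) and of citrate cycle genes (43.2%). These shares, and the list counts given below, stand beside 15.4% (beta-high) and 15.3% (delta-high) over all tested genes.

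**Figure D2:**
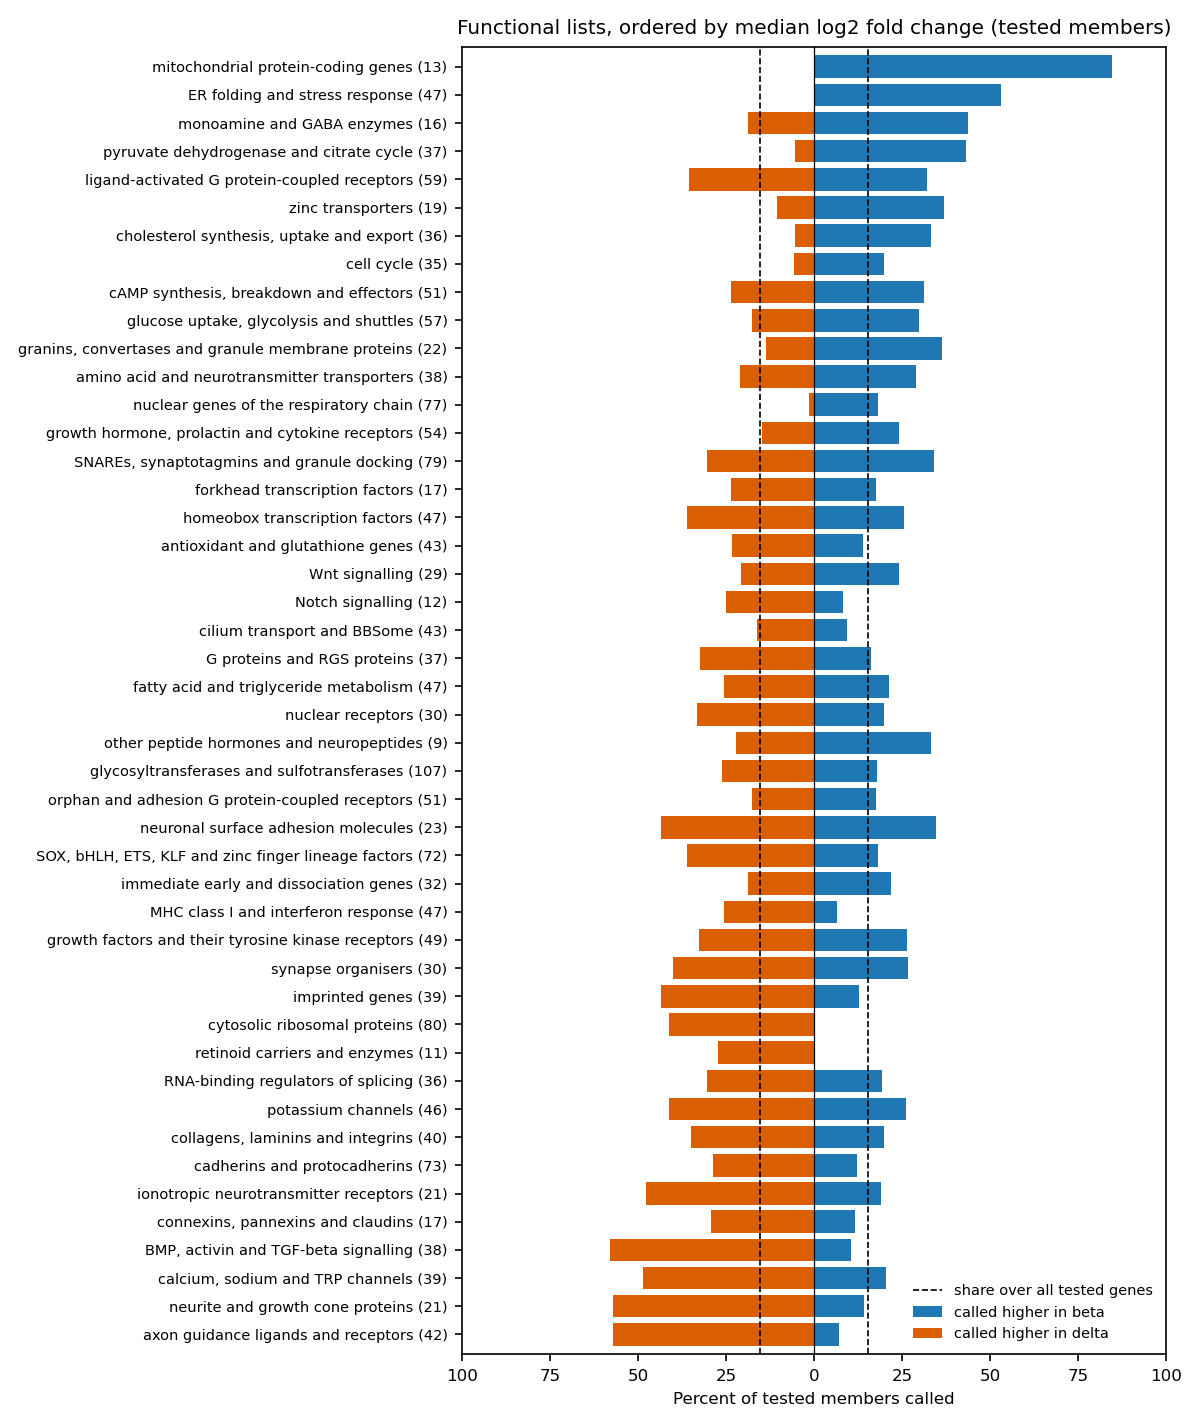
Percent of tested members called higher in beta (blue, to the right) or in delta (orange, to the left) for 46 functional lists, ordered by their median log2 fold change, with the number of tested members in parentheses. Dashed lines mark 15.4% and 15.3%, the shares over all 15896 tested genes. Mitochondrial protein-coding genes stand at the top and axon guidance genes at the foot.

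Several genes of cell surface proteins were transcribed in the delta-enriched libraries and had no count in beta. Ptprz1 (ENSMUSG00000068748, chromosome 6, 22875502 to 23052916, GRCm38) encodes a receptor tyrosine phosphatase best known from glia, and its level was 343, 358 and 364 CPM in the delta libraries and 0 in each library of beta, at least 2329.7-fold lower. All lower bounds of this kind were taken against a floor of 3 counts summed over the 3 libraries of the lower group, and these bounds and the count ratios below cover counting error only. Ptn, which encodes pleiotrophin, a secreted ligand of that phosphatase, was at 39.7, 21 and 24.4 CPM in delta and 0 in each library of beta, at least 186-fold lower. Transcripts of both ligand and receptor were thus present in every delta library and in no beta library. Gpm6a, a neuronal membrane glycoprotein gene, was at 123.05, 119 and 121 CPM in delta and 0 in each library of beta (at least 795-fold lower). The growth cone protein gene Gap43 was at 35.2, 43.1 and 30.7 CPM in delta and 0 in each library of beta (at least 238-fold lower). Its functional partner Basp1 had 1 count in all of beta and 22.3, 22.8 and 18.8 CPM in delta, a ratio of 417 (exact counting interval 74.4 to 16501). Basp1 was as abundant in alpha, at 25.6 ± 1.17 CPM.

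**Figure D3:**
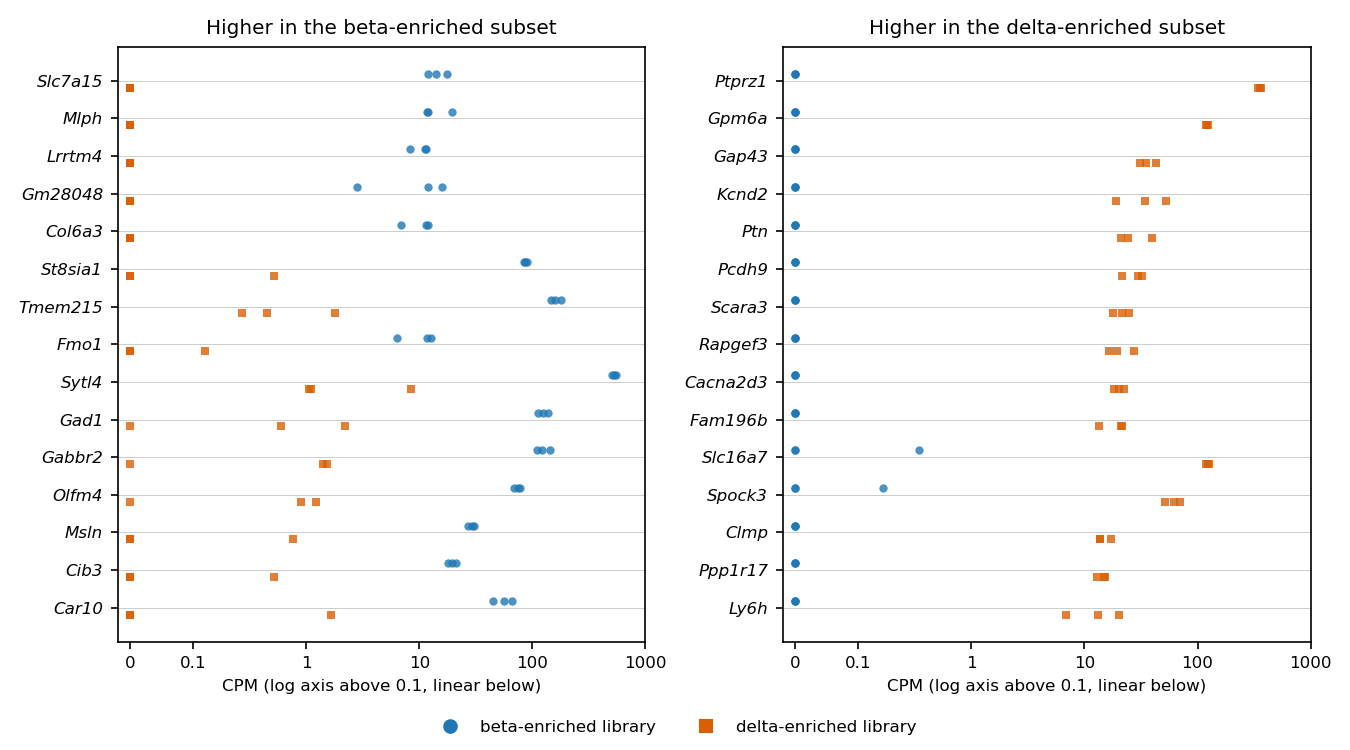
CPM in each beta-enriched (blue circles) and delta-enriched (orange squares) library for the 15 protein-coding genes per direction with the largest log2 fold changes, on a log axis that is linear below 0.1. The groups do not overlap for any gene, by the rule that chose them, and 13 of the 15 delta-high genes are at 0 in all 3 beta libraries, against 5 of the 15 beta-high genes at 0 in all 3 delta libraries.

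Growth cone genes were mostly delta-high, while a few structural genes of neurons were beta-high. Of 21 tested growth cone and neurite genes 12 were higher in delta, 3 higher in beta and 6 without a call (57.1% and 14.3%), with a median log2 fold change of -0.96. All 3 beta-high members encode cytoskeletal proteins. The intermediate filament gene Ina was at 33.5, 42 and 33.8 CPM in beta against 6.56, 17.8 and 9.38 in delta (log2 fold change 1.70 with SE 0.27, adjusted p = 0.000129). The neuronal tubulin gene Tubb3 was at 17.1 ± 3.95 CPM against 5.44 ± 2.15 (log2 fold change 1.65 with SE 0.32, adjusted p = 0.000694), and Map2, which stabilises microtubules of dendrites, at 597 ± 26.8 against 485 ± 14.1 (log2 fold change 0.30 with SE 0.08, adjusted p = 0.00711). Map1b, a related microtubule gene, stood at 1110.1 ± 23.2 and 1050.1 ± 59.5 CPM and made no call (adjusted p = 0.489). The call of Map2 was lost on the deposited TPM values. TPM is the share of transcripts after correction for their length, tested here after adding 1 or 0.1 and taking log2. No further scaling factors were applied to TPM, unlike in the main fit. Over all tested genes, 2298 of the 4869 calls were made again on log2(TPM + 1) and 2349 on log2(TPM + 0.1). A call lost on TPM was therefore common among all called genes.

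Surface adhesion molecules of neurons were called in both directions. Of 23 tested, 10 were higher in delta and 8 higher in beta. Dscam, an immunoglobulin-family receptor of neurite self-avoidance, was at 77, 113 and 78.1 CPM in delta and 0.257, 0.171 and 0.165 in beta (log2 fold change -8.66 with SE 0.37, adjusted p = 1.15e-11). The contactin gene Cntn1 was at 161, 123.04 and 109 CPM in beta against 52.3, 44.9 and 44.1 in delta (log2 fold change 1.48 with SE 0.16, adjusted p = 2.15e-06), and the contactin-associated gene Cntnap2 at 93.8 ± 7.94 and 38.9 ± 0.952 (log2 fold change 1.27 with SE 0.12, adjusted p = 3.01e-07). Nrcam was at 29.7, 26.9 and 26.2 CPM in beta against 0.137, 2.27 and 6.55 in delta, where library 3 was the highest. The difference (log2 fold change 3.17 with SE 0.66) was 4.56 without delta library 3. Ptprf, a receptor phosphatase of another family, was at 503 ± 41.5 CPM in beta against 347 ± 39.4 in delta (log2 fold change 0.53 with SE 0.10), a call lost on TPM.

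Synapse organisers, proteins that align the 2 sides of a synapse, were also called in both directions. Of 30 tested, 12 were higher in delta and 8 higher in beta. Among latrophilins, adhesion receptors of the synapse, Adgrl2 was at 46.7, 46.6 and 35.7 CPM in delta and 0.257, 0 and 0.990 in beta (log2 fold change -6.66 with SE 0.41, adjusted p = 1.42e-09). Adgrl3 ran the other way, at 52.5, 51.6 and 47.5 CPM in beta against 0.683, 0 and 1.54 in delta (log2 fold change 5.99 with SE 0.50, adjusted p = 1.49e-06). Nrxn2, of the neurexins that bind latrophilins across the synapse, was at 6.56, 14.2 and 11.4 CPM in delta and 0.128, 0.343 and 0.165 in beta (log2 fold change -5.60 with SE 0.55, adjusted p = 4.16e-07). Lrrtm4, a postsynaptic neurexin ligand, was at 8.35, 11.5 and 11.2 CPM in beta and 0 in each library of delta, at least 74.9-fold higher. Cbln4, a secreted neurexin-binding protein gene, was at 14.2, 17.4 and 7.58 CPM in delta and 0 in each library of beta, at least 85.7-fold lower. Adgrl2 moved to -8.04 without beta library 3, and Adgrl3 to 7.08 without delta library 3.

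Axon guidance had the lowest median of the 46 lists. Guidance cues are secreted or membrane-bound ligands (semaphorins, ephrins, netrins, slits) read by plexin, neuropilin, Eph, DCC and Robo receptors. Of 42 tested genes 24 were higher in delta, 3 higher in beta and 15 without a call, with a median log2 fold change of -1.33. The ligand gene Sema3e was at 129, 125 and 118 CPM in delta and 1.54, 3.08 and 3.96 in beta (log2 fold change -5.47 with SE 0.21, adjusted p = 3.01e-12), with 51 ± 3.66 in alpha. The ephrin ligand gene Efnb3 was at 47.1, 66.2 and 56.3 CPM in delta and 0.514, 0.171 and 0.990 in beta (log2 fold change -6.62 with SE 0.37, adjusted p = 3.89e-10). Nrp2, a semaphorin co-receptor gene, was at 28.4, 38.1 and 31.9 CPM against 0.385, 0.171 and 0 (log2 fold change -7.23 with SE 0.48, adjusted p = 3.34e-09). For each of these genes the lowest delta library lay over 25 CPM and no beta library reached 4. Efnb3 moved to -7.20 without beta library 3 and Nrp2 to -8.33 without beta library 1.

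The 3 beta-high guidance genes were receptors, Robo1 and Robo2 among them. Robo1, a receptor for slit ligands, was at 122.9, 113 and 122.8 CPM in beta against 0, 1.36 and 3.73 in delta (log2 fold change 6.09 with SE 0.55, adjusted p = 9.14e-05), and at 7.49 without delta library 3. Robo2 was at 352, 328 and 354 CPM in beta against 107, 87.5 and 90.3 in delta (log2 fold change 1.86 with SE 0.09, adjusted p = 8.99e-11), with 411 ± 3.71 in alpha. Epha7, an ephrin receptor gene, was at 25.3 ± 4.37 CPM against 12.9 ± 2.12 (log2 fold change 0.97 with SE 0.19, adjusted p = 0.000674), and this call was lost on TPM.

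Cadherin genes and matrix genes were called in both directions. Of 73 cadherins and protocadherins 21 were higher in delta, 9 higher in beta and 43 without a call. Without beta library 2 the first count was 13, and without beta library 1 the second was 5. Pcdh9 was at 32.2, 29.8 and 21.3 CPM in delta and 0 in each library of beta (at least 182-fold lower). Pcdh15, a protocadherin known from the tip links of hair cells, was at 329, 311 and 280.4 CPM in delta and 28.6, 35.6 and 37.8 in beta (log2 fold change -3.18 with SE 0.15, adjusted p = 6.38e-11). Neural cadherin, Cdh2, was at 259 ± 4.71 CPM in beta against 529 ± 59.5 in delta (log2 fold change -1.03 with SE 0.09, adjusted p = 1.41e-07). In the other direction Cdh7 was at 53, 49.7 and 49.5 CPM in beta against 3.82, 0.907 and 2.57 in delta (log2 fold change 4.35 with SE 0.31, adjusted p = 7.45e-09). Reads of the clustered protocadherins are shared among near-identical genes, so their single calls are uncertain. Fat3, a giant atypical cadherin gene, had 3 counts in beta and 28.8, 17.2 and 21.6 CPM in delta, a ratio of 149 (exact counting interval 50.7 to 725).

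Matrix receptors divided by subunit. Of 40 tested collagen, laminin and integrin genes 14 were higher in delta and 8 higher in beta, a balance that turned to 5 and 7 on log2(TPM + 1). Without beta library 1 or 2 the delta-high count was 9. The integrin subunit gene Itgav was at 459.7, 402 and 403 CPM in beta against 62.1, 39.5 and 59.6 in delta (log2 fold change 2.97 with SE 0.15, adjusted p = 2.46e-10). One of its beta subunit partners, Itgb6, was at 10.2, 15 and 9.77 CPM in delta and 0, 0 and 0.660 in beta (log2 fold change -5.71 with SE 0.68, adjusted p = 4.26e-06), moving to -9.43 without beta library 3 and -5.04 without beta library 1. Itgb1, the most widely shared beta subunit, was at 163 ± 3.56 CPM in beta against 263 ± 26.5 in delta (log2 fold change -0.69 with SE 0.10), a call lost on TPM. Col6a3 was at 6.93, 12 and 11.4 CPM in beta and 0 in each library of delta (at least 73.2-fold higher). The basement membrane collagen gene Col4a1 was at 17.2, 16.8 and 14.4 CPM in beta against 0, 0.454 and 3.21 in delta (log2 fold change 3.66 with SE 0.74), or 6.11 without delta library 3. The 9 listed mesenchymal markers summed to 1.28 to 1.54 CPM in beta.

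Junction genes included a beta-high gap junction gene and several delta-high tight junction genes. Gjd2, which encodes connexin 36, the gap junction protein that couples beta cells, was at 182, 163 and 164 CPM in beta against 29, 52.5 and 32.4 in delta (log2 fold change 2.16 with SE 0.21, adjusted p = 3.29e-06). The tight junction genes Cldn6 (2.05, 2.91 and 1.82 CPM in beta compared with 21.9, 26.9 and 26.1 in delta, log2 fold change -3.46 with SE 0.27) and Ocln (19 ± 2.18 and 47.8 ± 9.75, log2 fold change -1.33 with SE 0.18) were higher in delta. Over the 17 tested connexins, pannexins and claudins, 5 were higher in delta, 2 higher in beta and 10 without a call. Cldn1, named after its value was seen, was the other beta-high member (log2 fold change 4.31 with SE 0.91, adjusted p = 0.00136). The scaffold gene Tjp1, at 318 ± 19.1 and 276 ± 14.2 CPM, made no call (adjusted p = 0.0977).

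Ion channels set the firing pattern of both cell types, and their genes were divided by family member more than by class. Of 46 tested potassium channel genes 19 were higher in delta, 12 higher in beta and 15 without a call. Kcnd2, an A-type voltage-gated channel that shapes repetitive firing in neurons, was at 18.8, 52.5 and 34.2 CPM in delta and 0 in each library of beta (at least 231-fold lower). Kcna5 was at 15.7, 9.37 and 11.2 CPM in delta and 0 in each library of beta (at least 79.3-fold lower). Kcnj12, an inward rectifier gene, was at 9.76, 7.88 and 11.7 CPM in beta and 0 in each library of delta (at least 70.8-fold higher). The ERG-type channel gene Kcnh6 was at 66.1, 66.1 and 67.5 CPM in beta against 2.46, 3.33 and 5.91 in delta (log2 fold change 4.07 with SE 0.20, adjusted p = 8.71e-11). Kcng3, a silent subunit that modifies other channels, was at 23.2 ± 2.96 and 1.36 ± 1.3 CPM (log2 fold change 4.12 with SE 0.50). Its value was 5.09 without delta library 2 and 3.56 without delta library 3.

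A pair of channel genes tied to glucose sensing was somewhat higher in delta. Kcnj11, the pore subunit of the ATP-sensitive channel, was at 59.97, 63.6 and 71.5 CPM in beta against 93.5, 99 and 90.2 in delta (log2 fold change -0.54 with SE 0.11, adjusted p = 0.000942). Kcnk16, the islet background channel TALK-1, was at 71.5, 91.5 and 84.8 CPM in beta against 124, 203 and 177 in delta (log2 fold change -1.03 with SE 0.15, adjusted p = 6.04e-05). The groups did not overlap for either gene, and both calls were lost on TPM.

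Calcium, sodium and TRP channel genes were called in both directions, mostly in delta. Of 39 tested calcium, sodium and TRP channel genes 19 were higher in delta and 8 higher in beta, with a median log2 fold change of -0.73. Cacna1h, a T-type channel gene that opens at low voltages, was at 89.3, 132 and 107 CPM in delta and 0.128, 0.171 and 0.330 in beta (log2 fold change -8.96 with SE 0.38, adjusted p = 2.88e-11). Auxiliary subunit genes were called in both directions, and a pair of them was nearly without counts in beta. Cacna2d3 was at 18.4, 22.4 and 20.04 CPM in delta and 0 in each library of beta (at least 133-fold lower), and Cacna2d2, with 2 counts in beta, was at 56.8, 57.2 and 56.5 CPM in delta, a ratio of 559 (exact counting interval 154 to 4622). A pair of TRP channels went the other way. Trpm5, a calcium-activated cation channel gene also listed as a beta marker, was at 52.8, 54.8 and 43.2 CPM in beta against 0.273, 1.06 and 1.8 in delta (log2 fold change 5.55 with SE 0.33, adjusted p = 9.05e-10). Trpc4 was at 10.02, 8.23 and 9.9 CPM in beta against 0, 0.907 and 0 in delta (log2 fold change 4.97 with SE 0.74). Without delta library 3 Trpm5 moved to 6.24 and Trpc4 to 4.38, and without delta library 2, the only one with a count, Trpc4 moved to 9.11.

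Receptors for fast transmitters were delta-high in 10 and beta-high in 4 of 21 tested genes. The AMPA receptor subunit gene Gria2 was at 207, 161 and 167 CPM in delta and 21.3, 23 and 20.3 in beta (log2 fold change -3.05 with SE 0.12, adjusted p = 3.27e-12), and its alpha level, 379 ± 14.3 CPM, was above both. Grin1, the obligatory NMDA receptor subunit, was at 42.8, 46.4 and 51 CPM in beta against 22, 25.3 and 14.6 in delta (log2 fold change 1.18 with SE 0.20, adjusted p = 0.000211), and the glycine receptor subunit gene Glrb at 56.3 ± 5.24 and 16.7 ± 2.48 (log2 fold change 1.75 with SE 0.15, adjusted p = 9.65e-08).

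Receptors coupled to G proteins were divided almost evenly, 21 delta-high and 19 beta-high of 59 tested. The median log2 fold change was 0.27, or -0.07 without beta library 2. Gabbr2, a subunit of the metabotropic GABA-B receptor, was at 110.2, 122 and 145 CPM in beta against 0, 1.51 and 1.41 in delta (log2 fold change 7.0 with SE 0.37, adjusted p = 1.69e-08). The galanin receptor gene Galr1 was at 58, 58.6 and 59.4 CPM in beta against 0, 0 and 3.6 in delta (log2 fold change 5.51 with SE 0.84), with all its delta counts in library 3 and a fitted value of 11.72 without it. Ffar3, a receptor for short-chain fatty acids, was at 9.37, 6.85 and 8.75 CPM in beta and 0 in each library of delta (at least 60.3-fold higher). On the delta side the somatostatin receptor gene Sstr1 was at 9.7, 14.2 and 12.8 CPM and the adrenergic receptor gene Adra1a at 6.83, 10.4 and 14.6 CPM, both with no count in beta (at least 80.4-fold and 69.8-fold lower).

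Of 51 tested orphan and adhesion receptors, 9 were higher in each cell type (17.6% each), near the 15.4% and 15.3% over all tested genes. Gpr158 was at 292, 298 and 265 CPM in beta against 6.69, 9.07 and 9.64 in delta (log2 fold change 5.07 with SE 0.21, adjusted p = 1.64e-10). Gprc5b was at 10.1, 10.4 and 6.42 CPM in delta and 0.257, 0.171 and 0.165 in beta (log2 fold change -5.36 with SE 0.57, adjusted p = 1.18e-06). Behind the receptors, 12 of 37 G protein and RGS genes were higher in delta and 6 higher in beta. Gnas, whose locus makes the stimulatory alpha subunit and other imprinted transcripts that gene-level counts join, was at 465, 498 and 452 CPM in beta against 1535, 1567 and 1603 in delta (log2 fold change -1.73 with SE 0.08, adjusted p = 5.36e-11), with 3002 ± 160.1 in alpha. The gamma subunit genes Gng12 and Gng2 ran in opposite directions. Gng12 was at 859 ± 71.6 CPM in beta against 175 ± 9.15 in delta (log2 fold change 2.30 with SE 0.11, adjusted p = 3.68e-11), and Gng2 at 4.06 ± 1.09 and 42.2 ± 11.6 (log2 fold change -3.36 with SE 0.25, adjusted p = 1.38e-08). Rgs11, which speeds the switching-off of G proteins, was at 65.4, 65.8 and 67.2 CPM in beta against 3.28, 7.41 and 4.37 in delta (log2 fold change 3.73 with SE 0.23, adjusted p = 1.32e-09).

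Cyclic AMP amplifies secretion in both cell types, and the enzymes and effectors that handle it differed. Of 51 tested genes 16 were higher in beta and 12 higher in delta. Without beta library 2 the counts were 10 and 13, and on log2(TPM + 1) 5 and 6, so that the larger side turned. Rapgef3, which encodes the cAMP-activated exchange factor Epac1, was at 19.3, 27.2 and 16.4 CPM in delta and 0 in each library of beta (at least 138-fold lower). The calcium-stimulated adenylate cyclase gene Adcy8 was at 45.1, 38.6 and 35.2 CPM in delta and 0.514, 0.171 and 1.16 in beta (log2 fold change -5.98 with SE 0.44, adjusted p = 1.51e-08), or -6.69 without beta library 3. Adcy2 was at 14.1, 4.23 and 5.14 CPM in delta and 0 in each library of beta (at least 51.3-fold lower). On the beta side Pde5a, a phosphodiesterase gene specific for cyclic GMP, was at 209, 205 and 170.0 CPM against 5.74, 9.37 and 7.71 (log2 fold change 4.68 with SE 0.30, adjusted p = 5.1e-07), and the anchoring protein gene Akap6 at 46.7 ± 8.44 against 13.3 ± 0.916 (log2 fold change 1.81 with SE 0.20, adjusted p = 1.97e-06).

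Genes of the exocytosis machinery were called often and in both directions. Of 79 tested genes of SNAREs, synaptotagmins and granule docking 27 were higher in beta and 24 higher in delta, together 64.6%, beside 30.6% over all genes. Synaptotagmins sense calcium at the granule. Syt1, the fast sensor of synapses, was at 87.8, 72.6 and 79.9 CPM in delta and 0.257, 1.54 and 0.660 in beta (log2 fold change -6.67 with SE 0.31, adjusted p = 3.89e-11), or -7.48 without beta library 2. Syt6 was at 15.3, 7.41 and 9.12 CPM in delta and 0 in each library of beta (at least 69.6-fold lower). Syt13, an atypical synaptotagmin, was at 670.0 ± 18.9 CPM in beta against 325 ± 29.2 in delta (log2 fold change 1.04 with SE 0.09, adjusted p = 6.93e-08).

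The beta-high side held granule tethers. Sytl4, which encodes granuphilin, a docking protein of insulin granules, was at 553, 510.0 and 528 CPM in beta against 1.09, 1.06 and 8.48 in delta (log2 fold change 7.17 with SE 0.72, adjusted p = 0.000399), and moved to 8.93 without delta library 3. Mlph, which encodes melanophilin, a related Rab27 effector, was at 11.7, 11.8 and 19.3 CPM in beta and 0 in each library of delta (at least 103-fold higher). The active-zone gene Rims3 was at 102, 103 and 96.7 CPM in beta against 6.97, 5.44 and 6.04 in delta (log2 fold change 4.02 with SE 0.18, adjusted p = 1.99e-11). Cplx2, a SNARE clamp, differed little, at 556 ± 44 CPM in beta against 714 ± 29.4 in delta (log2 fold change -0.36 with SE 0.09, adjusted p = 0.00471). Its call was lost on TPM and without both libraries that stood apart.

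Granins, the bulk proteins of dense-core granules, were opposed within 1 family. Chga was at 3669, 4290.5 and 4019 CPM in beta against 1274, 1340.4 and 1428 in delta (log2 fold change 1.57 with SE 0.10, adjusted p = 2.35e-09). Chgb was at 959.6, 1126 and 947 CPM in beta against 2384, 1907 and 2291 in delta (log2 fold change -1.12 with SE 0.10, adjusted p = 1.7e-07). For both genes the groups stood clear of each other, in opposite order, and Scg2, at 2825 ± 303 and 2869.8 ± 395 CPM, made no call (adjusted p = 0.906). Resp18, another granule protein gene, was at 236 ± 21.4 CPM in beta against 663 ± 56.7 in delta (log2 fold change -1.49 with SE 0.11, adjusted p = 1.6e-08). In all 8 of 22 such genes were higher in beta and 3 higher in delta, or 5 delta-high without delta library 1.

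BMP, activin and TGF-beta genes were delta-high in 22 and beta-high in 4 of 38 tested, with a median log2 fold change of -0.58. These ligands act through paired kinase receptors and SMAD proteins, and secreted antagonists hold them in check. The ligand gene Bmp3 was at 239, 224 and 183 CPM in delta and 1.93, 1.71 and 0.330 in beta (log2 fold change -7.28 with SE 0.30, adjusted p = 1.95e-10), with 0.514 ± 0.364 in alpha. The follistatin-like gene Fstl5 was at 44.8 ± 4.31 CPM in delta and 0.634 ± 0.279 in beta (log2 fold change -6.06 with SE 0.35, adjusted p = 4.52e-10). The receptor gene Bmpr1a differed by less, at 158 ± 13.7 CPM in beta against 204 ± 17.8 in delta (log2 fold change -0.37 with SE 0.10, adjusted p = 0.00782), a call lost on TPM and without both libraries that stood apart. Id2, a usual transcriptional target of BMP signals, was at 19.5, 15.1 and 19.5 CPM in beta against 57.8, 56.2 and 52 in delta (log2 fold change -1.61 with SE 0.17, adjusted p = 8.81e-07).

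The 4 beta-high members included the protease gene Bmp1, which processes collagens, at 54.4, 50.04 and 52.3 CPM in beta against 2.05, 7.11 and 6.3 in delta (log2 fold change 3.34 with SE 0.32, adjusted p = 1.17e-06). They also included Acvr1c, the activin and nodal receptor ALK7, at 25.8 ± 3.88 CPM against 4.35 ± 1.07 (log2 fold change 2.57 with SE 0.22, adjusted p = 9.52e-08), with 27.3 ± 2.09 in alpha.

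Wnt and Notch genes were few and mixed. Of 29 tested Wnt genes 7 were higher in beta and 6 higher in delta. The ligand gene Wnt4 was at 124, 129 and 133.5 CPM in beta against 28.1, 19.5 and 35.2 in delta (log2 fold change 2.22 with SE 0.16, adjusted p = 1.3e-08), and Wls, the carrier that all Wnt ligands need for secretion, at 241 ± 17.8 and 61.7 ± 1.89 (log2 fold change 1.96 with SE 0.10, adjusted p = 7.67e-11). The receptor gene Fzd7 was at 16.1 ± 3.0 CPM and 2.12 ± 1.17 (log2 fold change 2.91 with SE 0.39), or 3.59 without both libraries that stood apart. The antagonist gene Sfrp5 was at 18.7, 29.6 and 31.2 CPM in delta and 1.93, 2.57 and 1.49 in beta (log2 fold change -3.73 with SE 0.25, adjusted p = 3.15e-09), but at 117 ± 12.5 in alpha. Among 12 tested Notch genes the receptor gene Notch2 (2.15 ± 0.579 CPM in beta, 15.4 ± 2.66 in delta, log2 fold change -2.84 with SE 0.29) and the imprinted ligand gene Dlk1 (1.68 ± 0.137, 24.8 ± 13.8, log2 fold change -3.88 with SE 0.44) were higher in delta, and the ligand gene Jag2 (16.5 ± 2.56, 3.77 ± 1.53, log2 fold change 2.14 with SE 0.32) was higher in beta. The call of Notch2 was lost on TPM, that of Jag2 on log2(TPM + 0.1), and Dlk1 moved to -3.28 without both libraries that stood apart.

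Genes of growth factors and their receptors were called in both directions. Of 49 tested, 16 were higher in delta and 13 higher in beta. Without delta library 3 these counts were 11 and 16, and without both libraries that stood apart 9 and 14. Hgf, hepatocyte growth factor, had 2 counts in beta and 37.8, 40.8 and 22 CPM in delta, a ratio of 325 (exact counting interval 89.7 to 2692). Gfra1, the GDNF co-receptor gene, had 3 counts in beta and 56.7, 63.1 and 45.2 CPM in delta, a ratio of 358 (exact counting interval 122 to 1737), with 35.5 ± 5.23 in alpha. Fgf14, an intracellular FGF that binds sodium channels, was at 61.5, 60.8 and 60.8 CPM in delta and 0.128, 1.2 and 0.330 in beta (log2 fold change -6.85 with SE 0.34, adjusted p = 8.29e-11), or -8.03 without beta library 2. Receptor tyrosine kinase genes were called on both sides, and 3 of the beta-high ones follow. Ntrk2, the BDNF receptor gene, was at 175, 209.6 and 179.9 CPM in beta against 0, 1.97 and 6.55 in delta (log2 fold change 6.0 with SE 0.69, adjusted p = 0.000711), or 7.63 without delta library 3. Egfr was at 50.3, 48.8 and 53.8 CPM in beta against 5.46, 3.02 and 4.63 in delta (log2 fold change 3.53 with SE 0.27, adjusted p = 1.9e-08). Insrr, an alkali-sensing relative of the insulin receptor, was at 318 ± 26.1 CPM against 64.7 ± 16.8 (log2 fold change 2.30 with SE 0.16, adjusted p = 2.35e-08).

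Cytokine-type receptors were beta-high in 13 and delta-high in 8 of 54 tested (24.1% and 14.8%), beside 15.4% and 15.3% over all tested genes. The delta-high count was 5, 3 and 5 without beta library 1, 2 and 3. The prolactin receptor gene Prlr, which drives beta cell growth in pregnancy, was at 1039, 1124 and 795 CPM in beta against 7.92, 9.37 and 16.2 in delta (log2 fold change 6.45 with SE 0.43, adjusted p = 3.64e-05). The interleukin-1 receptor gene Il1r1 was at 1037, 928 and 1208 CPM in beta against 169.6, 157 and 214 in delta (log2 fold change 2.55 with SE 0.12, adjusted p = 8.29e-11), with 710.4 ± 48.2 in alpha. Lifr was at 255 ± 18 CPM in beta against 35.8 ± 12.5 in delta (log2 fold change 2.83 with SE 0.22, adjusted p = 2.82e-06). Il17rd, which restrains FGF signals, was at 45.8, 40.4 and 29.4 CPM in delta and 0.128, 0.514 and 0 in beta (log2 fold change -7.44 with SE 0.44, adjusted p = 8.34e-10), or -8.77 without beta library 2.

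Transcription factor genes were more often delta-high than beta-high. Of 47 tested homeobox genes 17 were higher in delta and 12 higher in beta, and of 72 SOX, bHLH, ETS, KLF and zinc finger genes 26 and 13. The large homeobox gene Zfhx4 was at 77.8, 94.5 and 91.4 CPM in delta and 2.7, 2.06 and 2.97 in beta (log2 fold change -5.08 with SE 0.20, adjusted p = 4.9e-12). Isl1, needed in all islet endocrine cells, was at 144, 144 and 141 CPM in beta against 345, 351 and 316 in delta (log2 fold change -1.24 with SE 0.09, adjusted p = 7.08e-09). Mnx1, a homeobox factor that keeps beta cell identity, was at 8.73, 8.05 and 9.24 CPM in beta and 0 in each library of delta (at least 62.8-fold higher). Lhx1 was at 11.1 ± 1.35 CPM in beta against 2.64 ± 1.71 in delta (log2 fold change 2.07 with SE 0.43). Its value was 2.72 without delta library 1 and 1.71 without delta library 3. Pax6, shared by all islet endocrine cells, was near equal, at 431 ± 12.3 and 338 ± 1.28 CPM (log2 fold change 0.35 with SE 0.08, adjusted p = 0.00192), and its call was lost on TPM.

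Factors known from progenitors and neurons were among the delta-high genes. Sox9, a factor of pancreatic progenitors and of adult duct cells, was at 17.6, 14.4 and 25.1 CPM in delta and 0 in each library of beta (at least 125-fold lower). The 9 listed duct markers, of which Sox9 is 1, summed to 379, 354 and 616 CPM in delta and 503 to 558 in beta. Of the 7 tested, 3 were higher in delta (42.9%), 1 higher in beta (14.3%) and 3 without a call. The part of duct cell RNA in the Sox9 difference was not tested. Sox11 had 2 counts in beta and 33.5, 25.9 and 20.9 CPM in delta, a ratio of 262 (exact counting interval 72.3 to 2172). Tox2 was at 16.9, 16.5 and 5.78 CPM in delta and 0 in each library of beta (at least 85.7-fold lower). On the beta side Neurod1, an activator of insulin transcription, was at 527, 481 and 498 CPM against 213, 166 and 202 (log2 fold change 1.37 with SE 0.10, adjusted p = 6.91e-09). The repressor gene Scrt1 was at 21.7 ± 6.78 CPM against 1.56 ± 1.37 (log2 fold change 3.77 with SE 0.59), or 4.39 without delta library 3. St18, an abundant zinc finger gene of endocrine cells, was at 326 ± 4.13 and 374 ± 27.6 CPM and made no call (adjusted p = 0.142).

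Nuclear receptors and forkhead factors held a few large differences. The nuclear receptor gene Nr5a2, also active in acinar cells, was at 16.3, 12.7 and 18.4 CPM in delta and 0.128, 0 and 0.495 in beta (log2 fold change -6.16 with SE 0.58, adjusted p = 2.53e-07). Delta library 3, with raised acinar transcripts, was the highest for Nr5a2, and the part of acinar RNA was not tested. The log2 fold change of Nr5a2 was -5.56 without both libraries that stood apart and -7.45 without beta library 3. The vitamin D receptor gene Vdr was at 96.2, 111 and 90.6 CPM in beta against 21.9, 26.3 and 30.8 in delta (log2 fold change 1.91 with SE 0.14, adjusted p = 7.78e-09). Pparg, a regulator of lipid storage, was at 16.2 ± 2.43 CPM against 2.01 ± 1.77 (log2 fold change 2.98 with SE 0.53), or 3.71 without delta library 1, and its call was lost on log2(TPM + 0.1). Foxp1 was at 86.5, 88.3 and 85.2 CPM in beta against 258, 207 and 201 in delta (log2 fold change -1.36 with SE 0.12, adjusted p = 7.92e-08). Over the 30 nuclear receptor genes 10 were higher in delta and 6 higher in beta, which turned to 2 and 5 on log2(TPM + 1).

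Splicing regulators were called on both sides. Rbfox3, the neuronal nuclear antigen NeuN, was at 16, 15.3 and 14.5 CPM in delta and 1.16, 1.54 and 0.990 in beta (log2 fold change -3.62 with SE 0.47, adjusted p = 1.14e-05). Khdrbs2 was at 34.6, 31 and 19.9 CPM in delta and 0.770, 0 and 0 in beta (log2 fold change -6.49 with SE 0.54, adjusted p = 1.39e-07), or -10.67 without beta library 1, which held all its beta counts. Esrp1, an epithelial splicing factor gene, was at 199, 184 and 167 CPM in beta against 83, 67.7 and 87.1 in delta (log2 fold change 1.21 with SE 0.12, adjusted p = 3.44e-07). Among 36 tested splicing regulators 11 were higher in delta and 7 higher in beta, or 3 each on log2(TPM + 1).

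Genes of mitochondrial fuel use were beta-high in most of their calls. Of 37 genes of pyruvate dehydrogenase and the citrate cycle 16 were higher in beta and 2 higher in delta, with a median log2 fold change of 0.32. On log2(TPM + 1) 4 and 1 were called. Acly, which turns citrate into acetyl-CoA for lipid synthesis, was at 2163, 2301 and 2176 CPM in beta against 907, 969.5 and 1091 in delta (log2 fold change 1.16 with SE 0.09, adjusted p = 1.39e-08). The fumarase gene Fh1 was at 94.1, 109.8 and 86.2 CPM in beta against 30.05, 36.3 and 28.5 in delta (log2 fold change 1.61 with SE 0.14, adjusted p = 7.84e-08). Mpc1, a subunit of the mitochondrial pyruvate carrier, was at 37.3 ± 0.460 CPM against 19 ± 5.7 (log2 fold change 0.97 with SE 0.20, adjusted p = 0.000938). Pcx, pyruvate carboxylase, was at 84, 97 and 106 CPM in beta against 5.33, 7.11 and 4.63 in delta (log2 fold change 4.08 with SE 0.19, adjusted p = 4.1e-11).

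The entry of fuels differed by transporter. Slc16a7, a monocarboxylate transporter that carries lactate and pyruvate, had 2 counts in beta and 119.6, 126 and 125 CPM in delta, a ratio of 1216 (exact counting interval 336 to 10044). Slc2a3, a high-affinity glucose transporter gene of neurons, also had 2 counts in beta and was at 8.47, 9.53 and 16.2 CPM in delta, a ratio of 114 (exact counting interval 31.2 to 944), with 21.9 ± 4.32 in alpha. Beta cells are known to keep monocarboxylate transport low. Pdk4, the kinase that shuts pyruvate dehydrogenase, was at 12, 6.05 and 13.1 CPM in delta and 1.03, 0.685 and 0.660 in beta (log2 fold change -3.66 with SE 0.36, adjusted p = 2.31e-06). Its alpha level was 237 ± 37.5 CPM, of which the delta level was 4.38%, close to the 4.90% for Gcg, and the part of alpha RNA in this difference was not tested. The glycolytic gene Pkm was at 396 ± 57.8 CPM in beta against 279.6 ± 34.2 in delta (log2 fold change 0.50 with SE 0.12, adjusted p = 0.00273), a call lost on TPM and without both libraries that stood apart.

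Sterol genes were mostly beta-high where called, and other lipid genes were mixed, 12 delta-high and 10 beta-high of 47. Without delta library 3 the latter counts were 8 and 10, and without both libraries that stood apart 8 each. Of 36 cholesterol genes 12 were higher in beta and 2 higher in delta, or 4 and 1 on log2(TPM + 1). Sqle, an early oxygenase of sterol synthesis, was at 129.9, 148 and 132 CPM in beta against 64.1, 41 and 65.5 in delta (log2 fold change 1.26 with SE 0.15, adjusted p = 8.01e-06). Lpl, lipoprotein lipase, was at 194, 144 and 156 CPM in beta against 24, 8.01 and 25.3 in delta (log2 fold change 3.10 with SE 0.39, adjusted p = 0.00101), with 500.1 ± 71.4 in alpha. The lipid droplet gene Plin3 was at 14.3, 19.8 and 14.9 CPM in delta and 1.67, 1.03 and 1.49 in beta (log2 fold change -3.51 with SE 0.30, adjusted p = 8.44e-08). Hadh, an enzyme of fatty acid oxidation whose loss causes excess insulin secretion, was at 302 ± 10.2 CPM in beta against 165 ± 11.1 in delta (log2 fold change 0.87 with SE 0.10, adjusted p = 2.65e-06).

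Transcripts of the mitochondrial genome were higher in beta almost without exception. Of 13 protein-coding genes 11 were higher in beta, none higher in delta and 2 without a call, with a median log2 fold change of 0.80. The counts were 11 and 0 without either or both libraries that stood apart. mt-Nd5 was at 7967, 7263 and 7339 CPM in beta against 3856, 3022 and 3459 in delta (log2 fold change 1.13 with SE 0.11, adjusted p = 4.41e-07). mt-Atp6 was at 5227 ± 249 CPM against 2232 ± 443 (log2 fold change 1.23 with SE 0.12, adjusted p = 6.24e-07), and mt-Co1 at 14757 ± 151 against 8540.4 ± 1150.2 (log2 fold change 0.79 with SE 0.11, adjusted p = 3.25e-05). The 77 nuclear genes of the respiratory chain did not move to the same extent, with 14 higher in beta, 1 higher in delta and a median of 0.09. Without beta library 2 those counts were 6 and 1, with a median of -0.07, and without beta library 1 they were 9 and 0. With upper-quartile scaling factors they were 9 and 1.

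Protein folding and protein synthesis genes ran in opposite directions. Of 47 ER folding and stress genes 25 were higher in beta and none higher in delta, with a median log2 fold change of 0.47. Edem1, which passes misfolded proteins on to degradation, was at 196, 204 and 200.4 CPM in beta against 67.2, 64.6 and 46.5 in delta (log2 fold change 1.75 with SE 0.15, adjusted p = 7.85e-08). Trib3, a stress-induced pseudokinase gene, was at 19.8 ± 6.79 CPM against 7.04 ± 0.407 (log2 fold change 1.49 with SE 0.26, adjusted p = 0.000277). The main chaperone genes made no call, with Hspa5 at 1163 ± 234.1 CPM in beta against 977 ± 189.8 in delta (adjusted p = 0.288) and Hsp90b1 at 1243 ± 277 and 1396 ± 195 (adjusted p = 0.428). Without beta library 2 the count of 25 fell to 16 with 1 delta-high gene, and without both libraries that stood apart to 14 with 2 delta-high genes. Without delta library 1 or 3 there was 1 delta-high gene, and with upper-quartile scaling factors or DESeq2 there were 2.

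Cytosolic ribosomal protein genes were delta-high in 33 of 80 and beta-high in none, a shift that was small for each gene, with a median log2 fold change of -0.34. Rpl36a was at 32, 42.2 and 28.1 CPM in beta against 67.9, 59 and 57.2 in delta (log2 fold change -0.85 with SE 0.16, adjusted p = 0.000487), and Rps29 at 32, 52.6 and 31.9 and 65.3, 73 and 67.3 (log2 fold change -0.82 with SE 0.17, adjusted p = 0.00093). Rpl10 was at 444 ± 19.7 and 569 ± 42.7 CPM (log2 fold change -0.36 with SE 0.09, adjusted p = 0.00658), and Rpl41, at 219 ± 22.5 and 183 ± 21.6, made no call (adjusted p = 0.218). Among the beta libraries, library 2, rich in ribosomal RNA, was the highest for Rpl36a and Rps29, and without it 35 genes were delta-high, against 20 without beta library 1 or 3. On log2(TPM + 1) none of the 80 was called in either direction, and the median was -0.09. Ribosomal protein genes have many processed pseudogenes, with which reads can be shared.

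Peroxide and metal handling differed by single genes. Gpx3, a secreted glutathione peroxidase gene, was at 323, 388 and 302 CPM in delta and 6.29, 6.68 and 7.43 in beta (log2 fold change -5.64 with SE 0.14, adjusted p = 5.66e-14), with 569 ± 65.2 in alpha. Its delta level was 59.4% of its alpha level, and the part of alpha RNA in this difference was not tested. Catalase, Cat, known as low in beta cells, was at 4.48 ± 0.384 CPM in beta against 16.2 ± 5.87 in delta (log2 fold change -1.85 with SE 0.38, adjusted p = 0.00111), and Prdx4, a peroxiredoxin gene of the ER, at 5.6 ± 1.27 and 15.1 ± 2.59 (log2 fold change -1.41 with SE 0.25, adjusted p = 0.00034). On the beta side the glutathione transferase gene Gstm2 was at 7.9 ± 0.733 CPM against 0.655 ± 0.472 (log2 fold change 3.57 with SE 0.58, adjusted p = 0.000127). The call of Cat was lost on log2(TPM + 0.1). Of 43 antioxidant genes 10 were higher in delta and 6 higher in beta, or 6 delta-high without beta library 3.

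The metallothionein genes, which buffer zinc and other metals, were higher in beta. Mt2 was at 87.7, 104 and 166 CPM in beta against 15, 14.2 and 25.8 in delta (log2 fold change 2.69 with SE 0.37, adjusted p = 0.000713), and Mt1 at 238, 264 and 521 and 83.6, 85 and 132 (log2 fold change 1.77 with SE 0.42, adjusted p = 0.0211). In both groups library 3 was the highest. The call of Mt1 was lost on TPM, without delta library 1 (adjusted p = 0.0688) and without delta library 2 (adjusted p = 0.0714). The zinc importer gene Slc39a8 was at 7.1, 6.65 and 7.97 CPM in delta and 0.257, 0.171 and 0.330 in beta (log2 fold change -4.74 with SE 0.64, adjusted p = 1.86e-05). Of 19 zinc genes 7 were higher in beta and 2 higher in delta.

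Enzymes of amine and GABA metabolism were beta-high in 7 and delta-high in 3 of 16 tested. Gad1, which makes GABA from glutamate, was at 136, 125 and 113 CPM in beta against 0, 0.605 and 2.18 in delta (log2 fold change 7.0 with SE 0.65, adjusted p = 0.000131), or 8.68 without delta library 3. Ddc, the decarboxylase of serotonin and dopamine synthesis, was at 235, 295 and 251 CPM in beta against 15.3, 5.9 and 18.8 in delta (log2 fold change 4.27 with SE 0.33, adjusted p = 2.72e-05). The monoamine oxidase gene Maob was at 154, 189.7 and 165 CPM in beta against 14.6, 12.9 and 10.8 in delta (log2 fold change 3.73 with SE 0.13, adjusted p = 1.69e-12). Ache, acetylcholinesterase, ran the other way, at 42.5, 54.7 and 32.6 CPM in delta and 0.128, 0.171 and 0.660 in beta (log2 fold change -7.06 with SE 0.41, adjusted p = 5.34e-10), or -8.04 without beta library 3.

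Enzymes that build cell surface sugars differed by single genes. St8sia1, the sialyltransferase that makes the ganglioside GD3, was at 84.9, 85.5 and 89.9 CPM in beta against 0, 0 and 0.514 in delta, all its delta counts being in library 3 (log2 fold change 8.75 with SE 0.39, adjusted p = 2.71e-11). St6gal2, a sialyltransferase gene of another linkage, had 1 count in beta and 7.24, 5.44 and 7.97 CPM in delta, a ratio of 137 (exact counting interval 24.2 to 5440.4). Sulf2, which trims sulfate from heparan sulfate outside the cell, was at 43.4, 56.2 and 58.1 CPM in delta and 2.05, 2.4 and 1.98 in beta (log2 fold change -4.61 with SE 0.26, adjusted p = 3.79e-10), and Ndst4, which adds sulfate to it, at 74, 51.4 and 55.8 and 4.88, 3.94 and 2.81 (log2 fold change -3.93 with SE 0.22, adjusted p = 1.62e-09), with 267 ± 46.7 in alpha. Of 107 tested glycosyltransferases and sulfotransferases 28 were higher in delta and 19 higher in beta, which turned to 11 and 15 on log2(TPM + 1). Among amino acid transporters Slc7a15 was at 17.7, 12 and 14 CPM in beta and 0 in each library of delta (at least 106-fold higher), while Slc7a14, the amino acid transporter gene with the highest mean TPM, was at 888 ± 54.5 and 839 ± 14.2 CPM and made no call (adjusted p = 0.491).

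Imprinted genes, which are read from 1 parental copy, were delta-high in 17 and beta-high in 5 of 39 tested. The neighbouring paternally expressed genes Peg10 and Sgce on chromosome 6 were both nearly silent in beta. Peg10 was at 205, 219 and 197 CPM in delta and 0.257, 0 and 1.49 in beta (log2 fold change -8.48 with SE 0.36, adjusted p = 1.12e-08), and Sgce at 59, 100.6 and 74.9 and 0.514, 0.171 and 0 (log2 fold change -8.17 with SE 0.36, adjusted p = 5.18e-11). In alpha they stood at 291 ± 34.2 and 54 ± 1.9 CPM, so that beta was the group set apart for this pair. Mest was at 157, 163 and 145 CPM in delta and 0.899, 0.514 and 0.990 in beta (log2 fold change -7.55 with SE 0.20, adjusted p = 6.54e-14), with 2.25 ± 0.364 in alpha, so that for Mest delta was set apart. The beta-high transporter gene Slc38a4 was at 298, 286 and 265 CPM in beta against 68.6, 38.3 and 56.2 in delta (log2 fold change 2.38 with SE 0.17, adjusted p = 1.33e-07). Peg10 moved to -10.30 without beta library 3 and Sgce to -9.58 without beta library 1.

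The remaining genes with the largest differences have roles less tied to these lists. On the delta side were Scara3, a scavenger receptor gene (at least 139.8-fold lower in beta), Fam196b, which lies within Dock2 on the other strand so that its reads are uncertain (at least 122-fold), the adhesion molecule gene Clmp (at least 97.3-fold), the phosphatase inhibitor gene Ppp1r17 (at least 94.1-fold) and Ly6h (at least 88.2-fold), all with no count in beta. The proteoglycan gene Spock3 had 1 count in beta and 70.2, 51.7 and 62.2 CPM in delta, a ratio of 1214 (exact counting interval 218 to 48001). On the beta side Tmem215 was at 159, 178 and 145 CPM against 0.273, 0.454 and 1.8 (log2 fold change 7.50 with SE 0.41), and the glycoprotein gene Olfm4 at 78.2, 74.9 and 69.5 against 0, 1.21 and 0.899 (log2 fold change 6.71 with SE 0.45). Msln, which encodes mesothelin, was at 27, 30.2 and 29.4 CPM against 0, 0 and 0.771, Cib3, a calcium-binding protein gene, at 19.4, 18 and 21 against 0, 0 and 0.514, and Car10, a carbonic anhydrase-like gene, at 56.1, 65.6 and 45.2 against 0, 0 and 1.67. In Msln, Cib3 and Car10 every delta count was in library 3, and without it Tmem215 moved to 8.74. The oxygenase gene Fmo1 had 1 count in delta and 6.29, 12.7 and 11.7 CPM in beta, a ratio of 214 (exact counting interval 38 to 8498). Gm28048, at 15.9, 11.8 and 2.81 CPM in beta and 0 in each library of delta, overlaps Commd1 and B3gnt2 on the same strand, and its counts are uncertain.

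Some delta-high genes were as high or higher in the alpha-enriched libraries. Of the 2427 delta-high genes 468 (19.3%) had an alpha mean at or above the delta mean, and of the 645 at 8-fold or more 127 (19.7%). At the other end, 187 of these 645 (29.0%) had an alpha mean under 10% of the delta mean. In delta, Gcg stood at 4.90% of its alpha level, Gria2 at 47.1%, Gnas at 52.3%, Peg10 at 71.2%, Sfrp5 at 22.7% and Ndst4 at 22.6%. The part of alpha RNA in these levels was not tested. Of the 251 beta-high genes at 8-fold or more, 27 (10.8%) had an alpha mean at or above the beta mean and 66 (26.3%) an alpha mean under 10% of it. The matching shares over all tested genes were not counted, so these shares cannot be called large or small.

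The promoters of the most divided genes were examined for CpG content, since promoters rich in CG pairs are typical of genes active in most tissues and of developmental regulators, and CpG-poor promoters of tissue-specific genes. Sequences were taken from RefSeq on GRCm38.p6, as the 250 bases before each gene start, for the 7743 tested protein-coding genes with 1 promoter in that table, and the motif CG is the same on both strands. A promoter was counted as CpG-rich at a GC content of at least 50% and an observed to expected CG ratio of at least 0.6. By this rule 66.1% of the 7743 genes had one, against 30.8% of all 22862 single promoters in the table. The examples show 1 promoter of each kind per direction, chosen after their values were seen and with every CG pair in capitals. They are the delta-high genes Ptprz1 (chr6:22875252-22875501, plus strand, 22 CG pairs) and Sema3e (chr5:14025026-14025275, plus strand, 7 pairs), and the beta-high genes Ntrk2 (chr13:58806319-58806568, plus strand, 19 pairs) and Sytl4 (chrX:133981813-133982062, minus strand, 5 pairs).
Ptprz1: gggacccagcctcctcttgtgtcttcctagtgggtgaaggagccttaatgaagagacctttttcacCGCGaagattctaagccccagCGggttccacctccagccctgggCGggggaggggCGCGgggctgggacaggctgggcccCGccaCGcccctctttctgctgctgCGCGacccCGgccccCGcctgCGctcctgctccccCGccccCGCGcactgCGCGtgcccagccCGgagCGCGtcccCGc
Sema3e: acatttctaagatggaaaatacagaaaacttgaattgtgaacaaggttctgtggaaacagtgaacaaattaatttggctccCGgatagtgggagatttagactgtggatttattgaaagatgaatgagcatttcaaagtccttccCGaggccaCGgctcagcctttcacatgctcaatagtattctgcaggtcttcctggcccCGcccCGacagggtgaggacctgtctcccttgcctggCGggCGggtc
Ntrk2: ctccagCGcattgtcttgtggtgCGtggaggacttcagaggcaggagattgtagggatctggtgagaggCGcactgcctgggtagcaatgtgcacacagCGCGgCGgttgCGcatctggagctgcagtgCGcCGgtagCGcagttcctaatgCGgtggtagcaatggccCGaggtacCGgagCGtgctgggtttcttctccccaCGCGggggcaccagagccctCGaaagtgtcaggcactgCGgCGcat
Sytl4: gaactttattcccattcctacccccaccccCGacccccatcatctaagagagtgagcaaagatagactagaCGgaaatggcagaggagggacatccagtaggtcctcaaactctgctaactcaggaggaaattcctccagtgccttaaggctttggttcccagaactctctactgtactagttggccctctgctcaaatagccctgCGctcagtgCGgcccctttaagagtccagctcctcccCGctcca
The first and the third are CpG-rich by the rule and the others are not, so that both kinds occur in both directions.

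Over all matched genes the share of CpG-rich promoters was lower among larger differences, step by step in beta and down to 8-fold in delta. Among genes called higher in beta it was 79.0% of 878 under 2-fold, 57.9% of 439 at 2-fold or more, 41.7% of 115 at 8-fold or more and 26.1% of 46 at 32-fold or more. Among genes called higher in delta it was 68.5% of 460, 46.4% of 707, 39.1% of 299 and 42.1% of 126, and among genes with no call 67.0% of 5259. The share also rises with the level of a gene. At 10 CPM or more in the higher group, the values for 32-fold or more were 30.8% of 26 beta-high and 29 of 58 delta-high genes, against 72.8% of 3623 genes with no call. These shares are descriptions, since genes are not independent of each other and a count of CG pairs does not show which factor acts there.

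**Figure D4:**
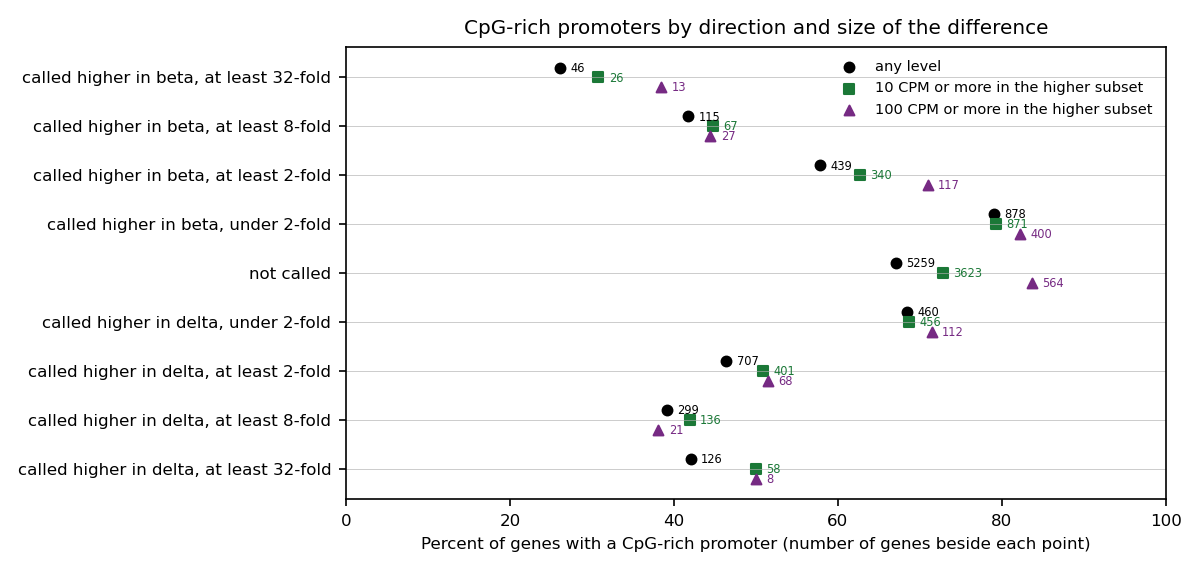
Percent of genes with a CpG-rich promoter by direction and size of the difference, for all matched genes (black circles) and for those at 10 CPM or more (green squares) or 100 CPM or more (purple triangles) in the higher group, with the number of genes beside each point. From 79.0% of beta-high genes under 2-fold the share falls to 26.1% of those at 32-fold or more, and in delta from 68.5% to 42.1%.

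Leaving out the libraries that stood apart moved the number of calls, and so did leaving out other libraries. Without beta library 2, 1919 genes were higher in beta and 2000 higher in delta, without delta library 3, 2422 and 2315, and without both, 1834 and 1844. Of the 4869 calls, 3776, 4224 and 3427 were made again in the same direction in these fits. Leaving out beta library 1 or 3 instead, which did not stand apart, gave similar numbers to leaving out beta library 2. Without beta library 1, 1982 genes were higher in beta and 1927 higher in delta, and without beta library 3, 2020 and 1964. Of the 4869 calls, 3803 and 3854 were then made again, and 4378 and 4241 without delta library 1 or 2. All 306 called genes among the 337 that the naming rule took kept their sign without beta library 2, delta library 3 or both. Of these, 284, 288 and 269 kept their call. Some genes nearly absent from delta moved far without delta library 3, with log2 fold changes going from 5.51 to 11.72 for Galr1, from 6.51 to 11.64 for Car10, from 6.63 to 10.69 for Msln, from 8.75 to 12.28 for St8sia1 and from 6.61 to 10.13 for Cib3. Such fitted values rest on the prior count where all remaining delta counts are 0. In the delta libraries Ins2 stood at 65.3, 118 and 390.1 CPM, highest in library 3, as were the acinar transcripts, and their part in these differences was not tested. Without both libraries axon guidance held 3 beta-high and 25 delta-high genes, BMP and TGF-beta 4 and 16, and calcium, sodium and TRP channels 7 and 18. On log2(TPM + 1) these lists held 2 and 13, 3 and 12, and 6 and 13 calls, ER folding 19 and 0, and mitochondrial genes 12 and 0.

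**Figure D5:**
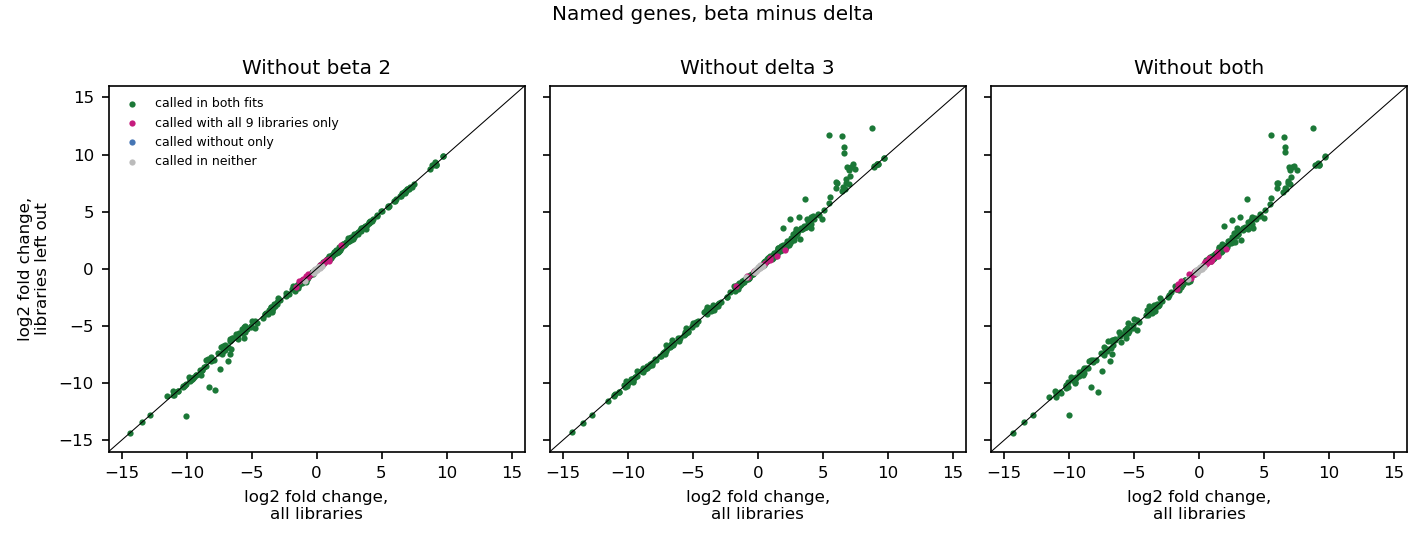
Log2 fold change of each of the 337 named genes with all 9 libraries (horizontal axis) and without beta library 2, delta library 3 or both (vertical axes), coloured by the fits in which it was called. Points lie near the diagonal except some beta-high genes above it without delta library 3, such as St8sia1 at 12.28 against 8.75.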

How the data were processed

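RNA from 9 mouse islet libraries (3 beta-enriched, 3 delta-enriched, 3 alpha-enriched) was sequenced after ribosomal RNA depletion with a strand-specific kit, per the labels' protocols. The deposited tables hold, per the file headers, an expected count and a TPM value per gene from RSEM. The submitters' processing notes name the build GRCm38.p6, the aligner STAR 2.5.2b and, with RSEM, DESeq2 1.22.1 under R 3.5.1. The version of RSEM and the strand setting of the counting were not given in the sources used here. Reads that match several genes are shared among them in an expected count, so near-identical genes are uncertain.

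Here the expected counts were rounded and fitted with edgeR 4.0.16 in R 4.3.3 (TMM factors, filterByExpr, robust quasi-likelihood fit with 1 coefficient per sorted group over all 9 libraries, two-sided test of beta minus delta, Benjamini-Hochberg adjustment over 15896 tested genes at 0.05). Standard errors were derived from the log2 fold change and its F statistic. The common biological coefficient of variation was 0.212. The procedure was tested on simulated counts. Totals of 5663141 to 9529920 counts per library set the precision, and with 1 count worth 0.1 CPM or more, levels under 1 CPM rest on few reads. For genes with no count in the lower group the bound used a floor of 3 counts over its 3 libraries, and with 1 to 3 counts a ratio with an exact 95% counting interval is given. Alternatives were DESeq2 1.42.0, limma 3.58.1 on log2(TPM + 1) and log2(TPM + 0.1), other scaling factors, filters and null hypotheses, a replicate block, and each library left out.

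Genes were named by a rule. It took the 15 called protein-coding genes per direction with the largest log2 fold change at 10 CPM or more in the higher group. For these, the rule required no overlap between the beta and delta libraries and left out the marker and iron lists. From each of 46 functional lists it took up to 3 called members per direction at 5 CPM or more and the 2 members with the highest TPM, called or not. It added the sort marker genes Cd24a and Tfrc and the islet hormones. The groups, lists and rules were chosen with earlier results of these data known. Promoters came from a RefSeq table on GRCm38.p6 with 32851 entries, which held 252 of the 337 named genes. The main fit used no pairing by replicate number. Correlations of same-numbered deviations were 0.0751, 0.00085 and 0.0375, and those of other pairs ran from -0.061 to 0.021. Correlations this low cannot decide whether same-numbered samples were paired. Values are given for only part of these genes, and a few are not reported here.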

Additional observations from a re-analysis of the deposited data

How the results depend on the processing

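The counts over all genes stayed within 1.5 times under other scaling factors, DESeq2, either filter, a fit of the 6 beta and delta libraries alone and removal of ribosomal, 7S and mitochondrial RNA. Each of the 46 functional lists gave a count per direction. Of these list counts, 3 moved by more with upper-quartile factors, 2 with DESeq2, 6 without a filter, 8 with a minimum count of 50 and 2 in the fit of 6 libraries. Many more moved elsewhere, 53 on log2(TPM + 1), 47 on log2(TPM + 0.1) and 69 in the test against a log2 fold change of 1. Leaving out a beta library moved 11 or 12, a delta library 5, and beta library 2 with delta library 3 17. Leaving out 1 library at a time gave 3909 to 5260 calls, 1919 to 2647 higher in beta and 1927 to 2613 higher in delta. Testing against a log2 fold change of 1 gave 1468 calls (503 higher in beta, 965 higher in delta). On log2(TPM + 1) there were 2446 (1350 and 1096) and on log2(TPM + 0.1) 2480 (1323 and 1157). The median log2 value moved by 0.12 and 0.17 on these scales, which carried no scaling factors between libraries, and the cause was not tested. With a replicate block 5241 genes were called (2710 and 2531). Whether the replicate numbers pair the samples is not known. A few genes without a call changed sign. Scg2 was at 0.16 on both TPM scales and at -0.10 to 0.10 with 1 library left out (0.07 without beta library 3, 0.10 without delta library 1), and Hspa5 at -0.0067 without beta library 2 and delta library 3 together. With 3 libraries a group and 5663141 to 9529920 counts each, differences in genes under 1 CPM were mostly not detectable at this depth.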

Other observations

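Further functional lists were also counted. MHC class I and interferon response genes were delta-high in 12 and beta-high in 3 of 47 tested, with a median log2 fold change of -0.28. Without delta library 3 they were delta-high in 8 and beta-high in 6. Cell cycle genes were beta-high in 7 and delta-high in 2 of 35, or 2 and 0 without beta library 1. Immediate early and dissociation genes, which respond to tissue handling, were beta-high in 7 and delta-high in 6 of 32, with 3 delta-high without beta library 2 or 3, and 5 beta-high and 7 delta-high without delta library 3. Genes of cilium transport and BBSome were delta-high in 7 and beta-high in 4 of 43, and 1 was beta-high without beta library 1 or 2 or delta library 2. The delta-high count was then 4 without beta library 1 or 3 and 3 without beta library 2 or delta library 2. With upper-quartile factors 9 were delta-high and 1 beta-high. Over all tested genes 15.3% were delta-high and 15.4% beta-high.

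Small nuclear RNA genes were delta-high in 11 and beta-high in none of 32 tested, and small nucleolar RNA genes delta-high in 9 and beta-high in 1 of 94. Antisense genes were divided evenly, 41 delta-high and 38 beta-high of 518, and lincRNA genes were beta-high in 46 and delta-high in 37 of 409. Processed pseudogenes were beta-high in 22 and delta-high in 10 of 465. Small nucleolar RNA, antisense, lincRNA and processed pseudogene classes were each called less often, in either direction, than the 15.4% and 15.3% over all tested genes. Among the beta libraries, library 2 held 52.9% of its counts in protein-coding genes, against 79.0% to 82.0% in the other 5 beta and delta libraries, and the part of this difference in the calls of short RNA genes was not tested.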
